A study of Mus musculus with 21 samples.

Results

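The mitochondrial ribosomal protein genes were taken as the rows of the liver count table whose Ensembl identifier is a protein-coding gene in GENCODE M21 (build GRCm38) and whose symbol is Mrpl or Mrps followed by a number and at most 1 letter. This gave 78 of the 46078 genes in the table, spread over 17 chromosomes, and 77 of them had enough counts to be tested. By their known place in the particle, 51 encode proteins of the large subunit and 26 of the small subunit. The remaining member, Mrps36, keeps its ribosomal name but encodes a subunit of the 2-oxoglutarate dehydrogenase complex. Of the ribosomal members, 46 have a bacterial counterpart and 31 are specific to mitochondria.

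The study asked how mice respond to a lack of cysteine from both the diet and their own synthesis. Bulk RNA sequencing of liver gave 21 libraries, titled as separate biological replicates, in 6 groups of genotype and diet. Knockout animals (KO, labelled cse, of mixed 129 and C57BL/6 background) lack Cse (symbol Cth), the gene of cystathionine γ-lyase, which releases cysteine from cystathionine. The comparison genotype is labelled WT, although the study describes its comparison animals as heterozygous Cse+/-, so WT here is only a name. The animals of all groups were male, at least 9 weeks old when the diets began, and calorie restricted. They received a control diet for 3 days and then spent 2 days on the control diet (CTR) or on the same defined diet without cysteine (noCys) or tryptophan (noTrp), with the other amino acids raised in proportion. WT contributed 3 CTR, 4 noCys and 2 noTrp libraries, and KO contributed 4 CTR, 3 noCys (replicates 1, 3 and 4) and 5 noTrp libraries. The knockout was not restricted to liver, so every organ of a KO animal lacked the enzyme.

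The mitochondrial ribosome translates the few messenger RNAs of the mitochondrial genome, all of which encode subunits of the respiratory chain and ATP synthase. Its RNAs are made in the organelle, whereas all its proteins are encoded in the nucleus, made in the cytosol and imported. Several of the proteins have been reported to hold iron-sulfur clusters through cysteines (Mrps6 with Mrps18c, Mrps16 with Mrps25, and Mrps18a), and the mammalian Mrps18 genes are copies of the bacterial S18 gene whose products occupy different places in the particle.

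Total counts ranged from 8889951 to 27230852 a library. Cth was at 6.34 to 15 CPM (counts per 1000000 of the TMM-scaled library size) in KO libraries and at 108 to 452 in WT libraries. Alb was the most counted gene in 19 of 21 libraries, and no hepatocyte marker was at 0, whereas summed adipocyte or skeletal muscle markers stayed at or under 7.35 CPM and summed pancreas markers at 10.5 to 34.9 CPM, with 2 or 3 of these 4 pancreas markers at 0 throughout each group. WT CTR replicate 3 and KO noCys replicate 3 stood apart, with CT010467.1 (a ribosomal RNA gene, 6.22% of counts) and Apoe (2.47%) as the most counted genes. In KO noCys the hepatocyte markers summed to 54400 to 85800 CPM against 111000 to 124000 in WT noCys. Alb alone had a mean of 30300 against 67400 CPM and was lower (log2 fold change -1.15, SE 0.23, edgeR adjusted p = 0.00108). Ttr (-1.03, SE 0.12), Serpina1c (-1.88, SE 0.31) and Pck1 (-0.64, SE 0.15) were also called lower. Apoa1 (-0.54), Tat (-0.34), G6pc (-0.22), Hnf4a (-0.10), Cps1 (0.03) and Cyp2e1 (0.09) were not called. In bulk tissue fewer cells of a type and less RNA per cell cannot be told apart.

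The promoters of the 3 Mrps18 genes, which hold the largest rise and the largest fall among the members, are shown from RefSeq (GRCm38.p6, strand of the gene, 5′ to 3′). For Mrps18a, which lies at chr17:46110986-46128910 on the plus strand, it is the stretch chr17:46110754-46110985 that ends just before the GENCODE start of the gene. For Mrps18b (chr17:35910379-35916389, minus strand) and Mrps18c (chr5:100798627-100804471, plus strand), a neighbour begins on the other strand close to the start, so 30 bases around 1 motif match are given, chr17:35916645-35916674 and chr5:100798592-100798621. The stretch for Mrps18b lies past the start of its neighbour Ppp1r10, which is 45 bases from that of Mrps18b. The stretch for Mrps18c spans the start of its neighbour Helq, which is 29 bases from that of Mrps18c. Capitals mark a match to the ETS motif CCGGAAG, bound by GABP, in Mrps18a and (on the other strand) Mrps18c, and to the NRF1 motif GCATGCGC in Mrps18b.
Mrps18a: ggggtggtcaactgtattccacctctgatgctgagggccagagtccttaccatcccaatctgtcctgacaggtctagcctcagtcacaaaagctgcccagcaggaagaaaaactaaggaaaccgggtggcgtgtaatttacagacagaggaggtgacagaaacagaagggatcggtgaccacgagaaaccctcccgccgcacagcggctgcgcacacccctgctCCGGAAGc
Mrps18b: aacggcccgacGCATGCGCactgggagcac
Mrps18c: gggtcacgtgaCTTCCGGcccgggaagcgc

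The 3 Mrps18 genes separated in KO noCys. Mrps18b, a small-subunit protein specific to mitochondria, was at 16.6, 20.3 and 17.9 CPM in KO noCys and at 8.52, 7.43, 5.98 and 8.77 CPM in WT noCys. All 3 KO noCys libraries lay above every other library of the series, of which the highest was a KO noTrp library at 12.7 CPM. Its level was 2.36-fold higher in KO noCys (log2 fold change 1.24, SE 0.26, edgeR adjusted p = 0.00146), the largest rise among the 77 members. Mrps18c, the copy that takes the place of bacterial S18 in the small subunit, moved the other way, at 10.6, 8.53 and 9.00 CPM in KO noCys against 19, 19.3, 22.5 and 17.1 CPM in WT noCys. Its level was 0.480 of that in WT noCys (log2 fold change -1.06, SE 0.18, edgeR adjusted p = 0.000225), the largest fall. Mrps18a, whose product sits in the large subunit, was at 39.9, 44.4 and 39.7 CPM against 35.8, 41.3, 38.4 and 42.4 CPM. The groups overlapped and Mrps18a was not called (log2 fold change 0.07, SE 0.09, edgeR adjusted p = 0.603), although with library totals alone in place of TMM it was called (0.28, adjusted p = 0.0366). Both other calls held under all 14 alternatives of processing, with log2 fold changes of 1.14 to 1.46 for Mrps18b and -1.15 to -0.84 for Mrps18c.

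**Figure D1:**
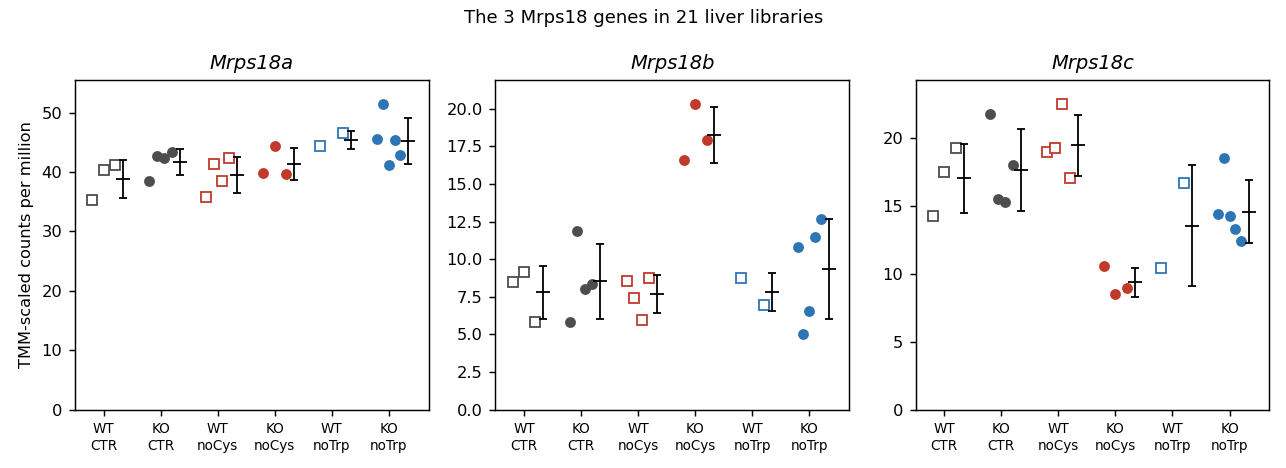
Level in TMM-scaled CPM (y axis, from 0) of Mrps18a, Mrps18b and Mrps18c in each liver library, by genotype and diet (x axis); open squares are WT and filled circles KO libraries, and the bar beside each group is its mean ± SD. The 3 KO noCys libraries sit at 16.6 to 20.3 for Mrps18b and at 8.53 to 10.6 for Mrps18c, while for Mrps18a KO noCys overlaps WT noCys and KO CTR.

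Over the 6 groups the mean level of Mrps18b was 7.80 ± 1.76 CPM in WT CTR, 8.52 ± 2.50 in KO CTR, 7.68 ± 1.27 in WT noCys, 18.3 ± 1.86 in KO noCys, 7.83 ± 1.25 in WT noTrp and 9.32 ± 3.31 in KO noTrp (SD). Below KO noCys, neighbours in this order differed by less than the spread within groups. For Mrps18c the same means were 17 ± 2.52, 17.6 ± 3.06, 19.5 ± 2.24, 9.38 ± 1.09, 13.5 ± 4.43 and 14.6 ± 2.35 CPM. The lowest library outside KO noCys was WT noTrp replicate 1 at 10.4 CPM, which overlapped KO noCys, and the KO noTrp libraries ran from 12.4 to 18.5 CPM. The raw counts behind these values were 50 to 425 a library for Mrps18b and 94 to 433 for Mrps18c. Mrps18b shares 638 exonic bases with Gm16279, an antisense gene (log2 fold change 1.07, SE 0.57, not called), and the strand setting of the counting was not given, so reads of the pair cannot be told apart. Mrps18c shares 250 exonic bases with Gm43511, a same-strand locus that was not tested. Ppp1r10, which begins 45 bases from Mrps18b on the other strand, was at -0.24 (SE 0.41), and Helq, 29 bases from Mrps18c, at 0.28 (SE 0.19); neither was called.

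Across the family, 29 of 77 members were called in KO noCys against WT noCys, 20 higher and 9 lower. That is 37.7% of the members, against 28.2% of all 14370 tested genes, with 14.8% higher and 13.4% lower. The median log2 fold change was 0.11 over the members and -0.02 over all genes, and it was positive for 54 of 77 members and 7041 of 14370 genes. The small subunit had 12 of 26 called (10 higher, 2 lower, median 0.19) and the large subunit 17 of 50 (10 higher, 7 lower, median 0.08). Of the members with a bacterial counterpart 20 of 46 were called, 12 higher and 8 lower, and of the mitochondria-specific ones 9 of 30, 8 higher and 1 lower. The 48 members not called lay between -0.21 (Mrpl20) and 0.32 (Mrpl38). With library totals alone, 44 members were called, 43 higher and Mrps18c as the sole fall, where the median was 0.32 over the members and 0.20 over all genes. With that scaling 34.3% of all genes were called, 27.4% higher and 6.84% lower. Without KO noCys replicate 3, 16 members (20.8%) were called, 12 higher and 4 lower, beside 16.5% of all genes, 8.91% higher and 7.6% lower.

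**Figure D2:**
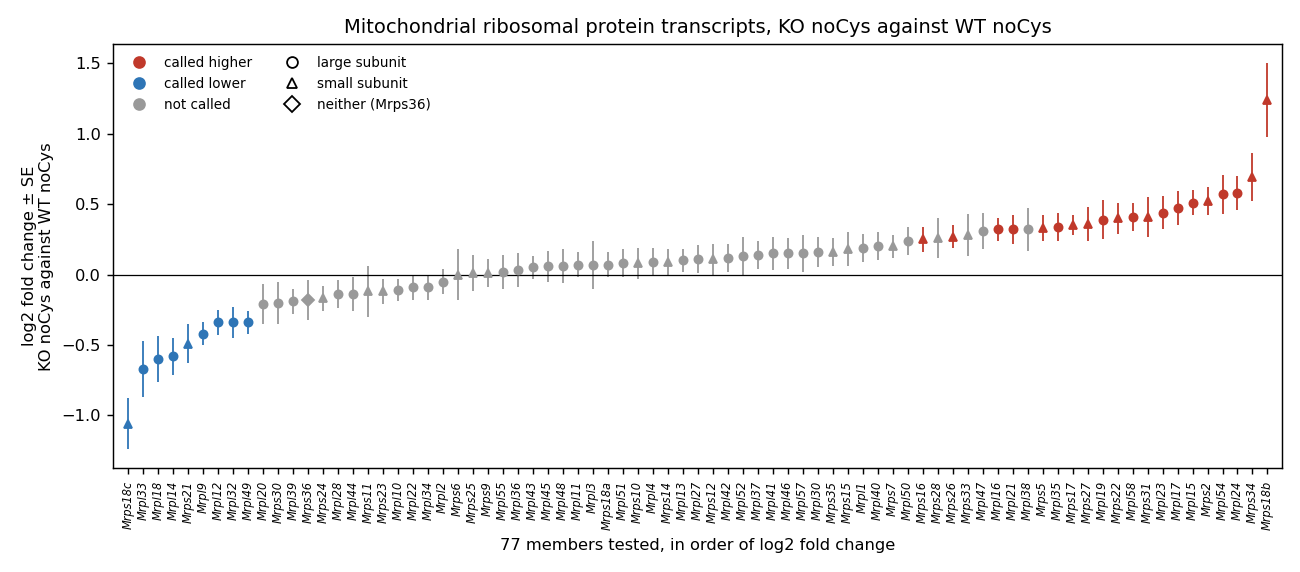
Log2 fold change ± SE (y axis) of the 77 members tested in KO noCys against WT noCys, in rank order (x axis); red and blue mark the 20 members called higher and the 9 called lower, grey those not called, and the symbol gives the subunit. Mrps18c at -1.06 and Mrps18b at 1.24 stand at the ends, and all but these, Mrpl33 and Mrps34 lie between -0.60 and 0.58.

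Mrps34, a small-subunit protein needed to keep the small ribosomal RNA stable, had the next largest rise. It was at 24.2, 28.5 and 26.7 CPM in KO noCys and at 17.7, 17.6, 14 and 16.6 CPM in WT noCys. The groups did not overlap (log2 fold change 0.69, SE 0.17, edgeR adjusted p = 0.00429). Its exons overlap those of Nme3 by 763 bases on the same strand and those of Mapk8ip3 by 1309 bases on the other. Mapk8ip3 was itself higher (0.49, SE 0.11, edgeR adjusted p = 0.00344), as was Eme2, which begins 29 bases away (0.97, SE 0.22, adjusted p = 0.00287). Mrpl24, a large-subunit protein with a bacterial counterpart, was at 74.2, 80.1 and 76.9 CPM against 50.6, 58.9, 41 and 55.4 CPM. No library of the other 5 groups exceeded 60.3 CPM, and the log2 fold change was 0.58 (SE 0.12, edgeR adjusted p = 0.00124).

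The other members among the 10 largest rises were Mrpl54 (0.57), Mrps2 (0.52), Mrpl15 (0.51), Mrpl17 (0.47), Mrpl23 (0.44), Mrps31 (0.41) and Mrpl58 (0.41), as log2 fold changes with SE from 0.09 to 0.14. Mrpl58 is a peptidyl-tRNA hydrolase built into the large subunit that releases stalled chains. Apba3, which begins 26 bases from Mrpl54 on the other strand, was also higher (0.77, SE 0.12, edgeR adjusted p = 8.17e-05). The remaining 10 called rises, among them Mrps22, Mrps5 and Mrpl16, had log2 fold changes of 0.25 to 0.40. The calls of Mrpl24, Mrpl54, Mrps2, Mrpl15, Mrpl23 and Mrpl58 held under all 14 alternatives, whereas Mrps31 lost its call when any of 4 libraries was left out, with adjusted p of 0.0748 to 0.0954, and Mrpl17 without KO noCys replicate 3 (adjusted p = 0.0565).

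The falls were led, after Mrps18c, by Mrpl33, a small large-subunit protein, at 12.7, 12.7 and 14.8 CPM in KO noCys against 17.3, 24.3, 25 and 19.1 CPM in WT noCys. The groups did not overlap (log2 fold change -0.67, SE 0.20, edgeR adjusted p = 0.0153). Mrpl18, which binds 5S ribosomal RNA, was at 51.4, 43.3 and 54.9 CPM against 66.3, 69.5, 92.8 and 72.9 CPM. It too was lower in every KO noCys library (log2 fold change -0.60, SE 0.16, edgeR adjusted p = 0.0106), while Tcp1, which shares 141 exonic bases with it on the other strand, was higher (0.48, SE 0.14, adjusted p = 0.0144). The further falls were Mrpl14 (-0.58), Mrps21 (-0.49), Mrpl9 (-0.42), Mrpl12 (-0.34), Mrpl32 (-0.34) and Mrpl49 (-0.34), with SE from 0.08 to 0.14. Tmem63b, which shares 106 exonic bases with Mrpl14 on the other strand, was lower as well (-0.50, SE 0.10, edgeR adjusted p = 0.00101). Mrpl12 forms the stalk that recruits translation factors and also binds the mitochondrial RNA polymerase, and Mrpl32 matures by cleavage through the m-AAA protease. With library totals alone these 8 falls stayed negative, at -0.45 to -0.12, and none was called. Without KO noCys replicate 3, Mrpl33, Mrpl18, Mrps21, Mrpl12 and Mrpl32 lost their calls, with adjusted p of 0.0689 to 0.134.

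**Figure D3:**
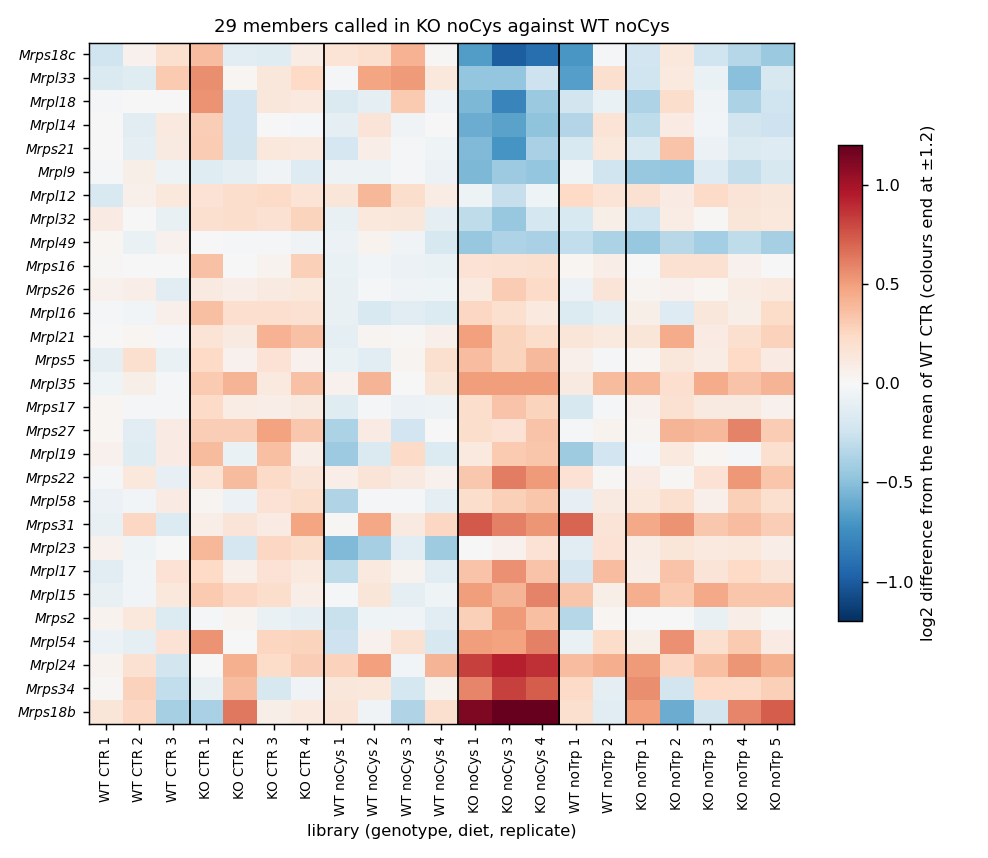
Log2 difference of each library (columns, by group) from the mean of WT CTR for the 29 members called in KO noCys against WT noCys (rows, from the largest fall to the largest rise); red is higher and blue lower, and the colours end at 1.2 in either direction. Mrps18b is red in the 3 KO noCys columns, where Mrps18c and Mrpl33 are blue. Both are also blue in WT noTrp replicate 1 and in KO noTrp replicate 4, where Mrpl33 was at 12.4 CPM. Mrpl49 is blue in the KO noCys, WT noTrp and KO noTrp columns.

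The 5 members reported to bind iron-sulfur clusters did not move as a group. Mrps18c fell and Mrps18a was not called, as given above. Mrps16 was at 38.3, 38.4 and 38.8 CPM in KO noCys against 32.1, 33.2, 32.3 and 32.1 CPM in WT noCys, a rise in every library (log2 fold change 0.25, SE 0.09, edgeR adjusted p = 0.0378) that was called in 4 of 14 alternatives. Its partner Mrps25 was at 21.2, 17.6 and 17.5 CPM against 16.7, 19.4, 19 and 19.1 CPM, so the groups overlapped (0.01, SE 0.13, adjusted p = 0.957). Mrps6, the partner of Mrps18c, was at 8.46, 12.6 and 15.4 CPM against 11, 13.4, 13.7 and 11.3 CPM, again with overlap (0.00, SE 0.18, adjusted p = 0.996). Mrps25 shares 4590 exonic bases with Nr2c2 on the other strand, which was higher (0.82, SE 0.25, edgeR adjusted p = 0.0187). Mrps6 shares 305 exonic bases with Gm49711 and 159 with Slc5a3, both on the same strand. Slc5a3 was not called (-0.55, SE 0.30), and the lowest library of Mrps6 had 75 counts. Mrps36, the dehydrogenase subunit, was at 8.12, 8.91 and 10.7 CPM against 11.3, 10.6, 9.31 and 10.8 CPM and was not called (-0.18, SE 0.14, adjusted p = 0.363).

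In the coding sequences of GENCODE M21, Mrps18c has 8 cysteine codons in 143 codons, or 5.59 per 100, the highest share among the 78 members. Mrps18b has 7 in 254 and Mrps18a 7 in 196. The median share was 1.25 per 100 codons over the members called higher, 1.38 over those called lower and 1.31 over those not called, where 12231 other tested protein-coding genes had a median of 1.92. The members were also short, with a median of 194 codons against 466. In level per kilobase of merged exons, over all libraries, the highest member was Mrps21 (102 CPM per kb) and the lowest tested was Mrpl33 (2.42 CPM per kb), with a median of 14.4 over the members and 2.67 over all tested genes. Mrpl33 has 7326 bases of merged exons and Mrps21 has 739. Mrpl53 was removed by the filter on low counts, with 0 counts in 19 of 21 libraries and 2 at most, and 695 of its 790 exonic bases are shared with Gm42688 on the same strand.

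The same cysteine-free diet was compared with the control diet within KO, which asks what the diet did where cysteine could not be made. Here 16 of 77 members were called, 6 higher and 10 lower (20.8%), beside 20.2% of all genes tested, 10.6% higher and 9.59% lower. The largest rises were Mrps18b (log2 fold change 1.09, SE 0.26), Mrps34 (0.68, SE 0.17) and Mrpl24 (0.64, SE 0.12), and the largest falls were Mrps18c (-0.92, SE 0.18), Mrpl18 (-0.75, SE 0.16) and Mrpl33 (-0.63, SE 0.20). Their edgeR adjusted p ranged from 0.000883 to 0.0264. The call of Mrpl33 held in 8 of 14 alternatives and was lost with library totals alone (adjusted p = 0.0742), with a replicate block (0.0527), and without KO CTR replicate 1 (0.0847), KO noCys replicate 1 (0.0674) or KO noCys replicate 3 (0.115), whereas those of the other 5 named held in all 14. In KO CTR, Mrps18b stood at 5.85, 11.9, 8.03 and 8.32 CPM and Mrps18c at 21.8, 15.5, 15.3 and 18 CPM, neither overlapping the KO noCys libraries given above. The median was -0.03 over the members and 0.00 over all genes. With library totals alone the split was 13 members higher and 6 lower, beside 16.6% and 5.9% of all genes. The medians were then 0.10 over the members and 0.13 over all genes. This comparison shares the KO noCys libraries with the preceding one, so the values of each are not independent.

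In WT, where cysteine can be made, the cysteine-free diet called no member against the control diet by edgeR or DESeq2, with 6 at an unadjusted edgeR p under 0.05. Of all genes edgeR called 0.661% and DESeq2 2.2%. Mrps18b was at -0.02 (SE 0.28) and Mrps18c at 0.19 (SE 0.17) on the log2 scale. Whether the diet acted differently in the genotypes was tested directly as the difference of these differences. It was called for 5 members, 1 positive and 4 negative, beside 7.44% of all genes (3.56% positive, 3.88% negative). Mrps2 was positive (0.57, SE 0.14), and Mrps18c (-1.11, SE 0.25), Mrpl18 (-0.76, SE 0.23), Mrpl32 (-0.55, SE 0.15) and Mrpl12 (-0.53, SE 0.13) were negative. The call of Mrps18c held under all 21 alternatives (adjusted p of 0.00104 to 0.0470), those of Mrps2 and Mrpl12 under 18, that of Mrpl32 under 11 and that of Mrpl18 under 4. Mrpl18 lost its call with RLE size factors (adjusted p = 0.0517), with a replicate block (0.0880) and when any of 13 single libraries was left out, and Mrpl32 with no filter (0.0695), with a replicate block (0.0641) and without any of 6 single libraries. That of Mrps18b was missed (1.11, SE 0.38, edgeR adjusted p = 0.0797), so its larger change in KO is not shown to differ between genotypes. Without KO noCys replicate 3 the call of Mrps18c alone was left, beside 3.01% of all genes. With library totals alone 3 members were positive (Mrps2, Mrps34 and Mrpl15) and 1 negative (Mrps18c), beside 5.95% and 2.25% of all genes.

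**Figure D4:**
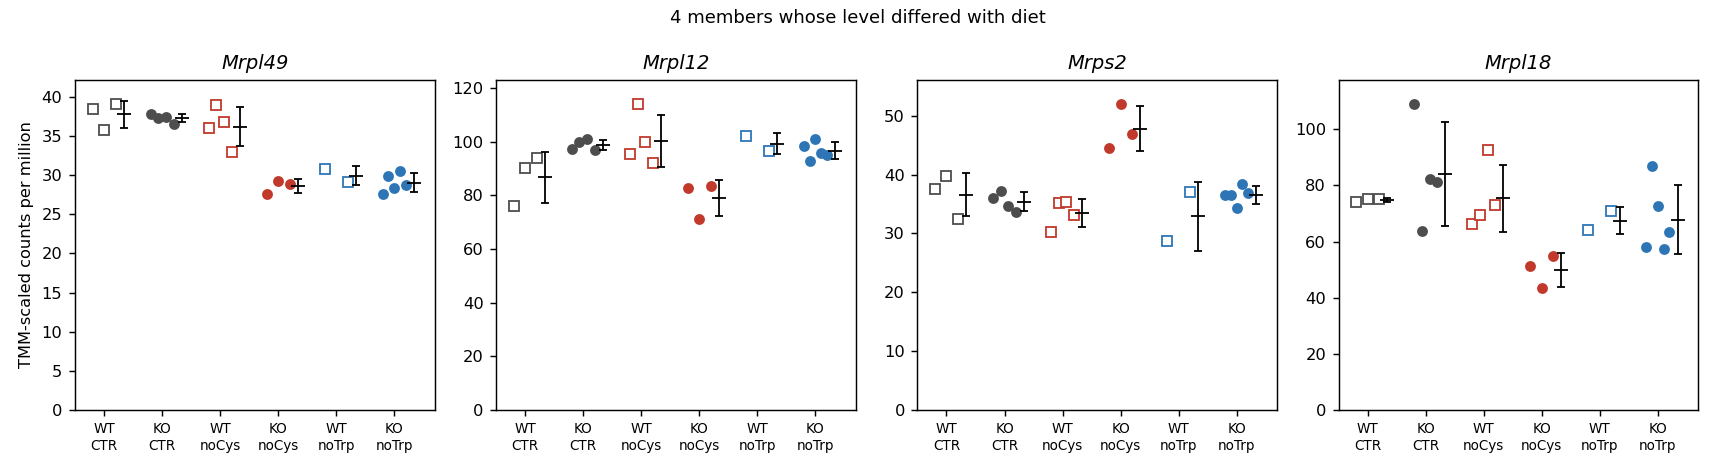
Level in TMM-scaled CPM (y axis, from 0) of Mrpl49, Mrpl12, Mrps2 and Mrpl18 in each library by genotype and diet (x axis); open squares are WT and filled circles KO libraries, with the mean ± SD beside each group. Mrpl49 lies at 27.6 to 30.8 in KO noCys, WT noTrp and KO noTrp and at 33 to 39.1 elsewhere, whereas Mrps2 is higher in KO noCys only, at 44.5 to 52.

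Removal of tryptophan served as a comparison for the loss of another indispensable amino acid. Mrpl49, a mitochondria-specific large-subunit protein, was the sole member called in KO noTrp against KO CTR, beside 1.87% of all genes. It was at 27.6, 29.9, 28.4, 30.6 and 28.7 CPM in KO noTrp and at 37.9, 37.3, 37.4 and 36.6 CPM in KO CTR. The groups did not overlap (log2 fold change -0.36, SE 0.07, edgeR adjusted p = 0.00584), and the call held in all 16 alternatives. The WT noTrp libraries had 30.8 and 29.1 CPM against 38.5, 35.8 and 39.1 CPM in WT CTR (-0.34, SE 0.09, edgeR adjusted p = 0.0459). Among the alternatives this call in WT held only with DESeq2 and with RLE size factors. In KO noCys Mrpl49 was at 27.6, 29.3 and 28.9 CPM, against 36, 39, 36.8 and 33 CPM in WT noCys. Thus all 10 libraries of the KO noCys, WT noTrp and KO noTrp groups lay below all 11 others. Mrpl49 shares 91 exonic bases with Syvn1, a ubiquitin ligase of the endoplasmic reticulum, which was higher in KO noCys against WT noCys (1.06, SE 0.22, edgeR adjusted p = 0.00112), and Fau, which begins 59 bases away, was not called (0.25, SE 0.12, adjusted p = 0.111).

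In WT noTrp against WT CTR the other called member was Mrps15, at 21.7 and 29.4 CPM against 35.5, 37.6 and 39.8 CPM (log2 fold change -0.56, SE 0.14, edgeR adjusted p = 0.0370); these 2 calls stand beside 3.19% of all genes. WT noTrp held 2 libraries. Neither member was called with library totals alone, no filter, a replicate block or only the groups compared. Nor was either called without any of the WT CTR libraries or without both libraries that stood apart. Without WT noTrp replicate 1 the log2 fold change was -0.37 for Mrpl49 and -0.36 for Mrps15. Without WT noTrp replicate 2 it was -0.29 for Mrpl49 and -0.79 for Mrps15. With either WT noTrp library left out, that group has 1 library, which is assumed to vary like the libraries of the other groups.

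Set directly against tryptophan removal within KO, cysteine removal gave 9 called members, 3 higher and 6 lower, beside 13.9% of all genes (7.17% higher, 6.75% lower). Mrps18b (log2 fold change 0.97, SE 0.24), Mrpl24 (0.46, SE 0.11) and Mrps2 (0.39, SE 0.09) were higher in KO noCys, and Mrps18c (-0.65, SE 0.17), Mrps36 (-0.52, SE 0.14) and Mrps21 (-0.51, SE 0.13) led the falls. Their edgeR adjusted p ranged from 0.00740 to 0.0158. Mrpl49 did not differ beyond its spread (-0.02, SE 0.07, adjusted p = 0.890), and Mrpl33 was not called (-0.22, SE 0.19, adjusted p = 0.468). Without KO noCys replicate 3 no member was called, the 6 named having adjusted p of 0.0692 to 0.118, beside 3.99% of all genes. With library totals alone the calls were 4 higher and 2 lower, beside 9.47% and 4.41% of all genes. The difference of the genotype effect on noCys from that on noTrp was called for Mrps18c alone (-1.17, SE 0.26, edgeR adjusted p = 0.0106), beside 6.35% of all genes. It lost the call without WT noTrp replicate 1 (-0.86, adjusted p = 0.0806), where 1 library stands for WT noTrp, and with library totals alone Mrpl24, Mrps31 and Mrpl15 were called as well. Over all 6 groups at once, 29 members were called as differing, beside 28.7% of all genes.

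**Figure D5:**
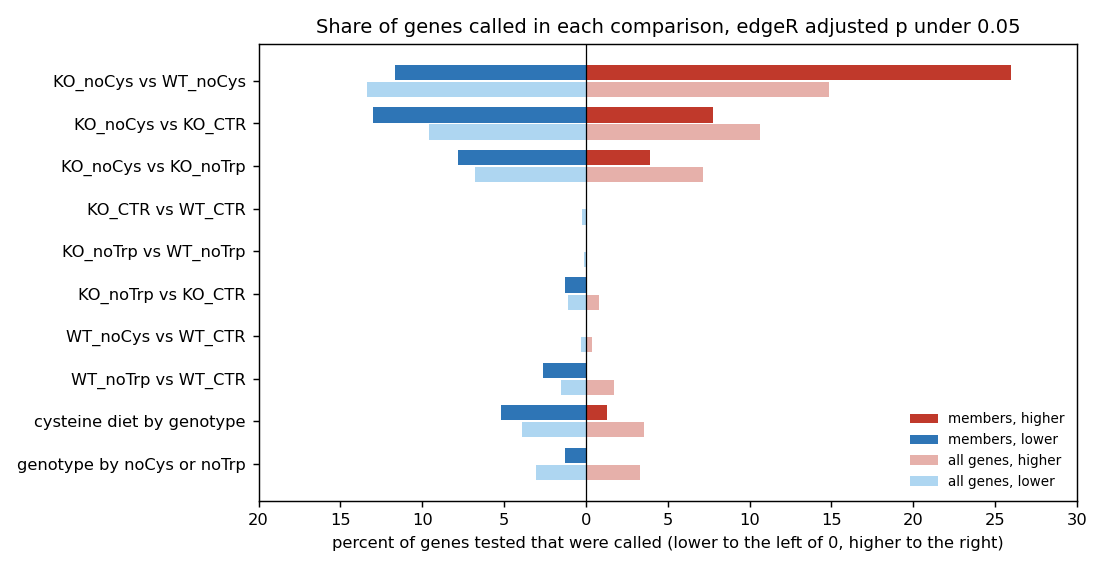
Percent of genes called (x axis, lower to the left of 0 and higher to the right) among the 77 members tested (dark bars) and all 14370 genes tested (pale bars) in 10 comparisons (y axis). The 3 comparisons of KO noCys with another group have the longest bars, and the members exceed all genes most in the share called higher when KO noCys is set against WT noCys.

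Where cysteine was in the diet, no member passed the test between the genotypes. On the control diet edgeR and DESeq2 called none, with 9 at an unadjusted edgeR p under 0.05, beside 0.32% of all genes by edgeR and 0.884% by DESeq2. The signs were uneven, with 67 of 77 members higher in KO CTR where 7177 of 14370 genes were, and the median log2 fold change was 0.13 over the members. On the noTrp diet edgeR called none, with 9 at an unadjusted p under 0.05, beside 0.195% of all genes. DESeq2 called Mrps7 (0.31, adjusted p = 0.0325), beside 0.814% of all genes. There 64 of 77 members were higher in KO noTrp where 7060 of 14370 genes were, and the median was 0.10 over the members and 0.00 over all genes. The members' median became 0.02 without WT noTrp replicate 1 and 0.15 without WT noTrp replicate 2.

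The family as a whole took a small share of the counts, from 0.279% to 0.397% a library. The mean share was 0.308% ± 0.0156 in WT CTR, 0.349% ± 0.0156 in KO CTR, 0.302% ± 0.0172 in WT noCys, 0.373% ± 0.0283 in KO noCys, 0.333% ± 0.0425 in WT noTrp and 0.365% ± 0.0229 in KO noTrp (SD). On the TMM scale the summed level was 3228 ± 54.7, 3517 ± 168, 3227 ± 177, 3438 ± 57.4, 3271 ± 215 and 3532 ± 175 CPM in the same order. The KO CTR libraries all lay above the WT CTR libraries, at 3318 to 3728 against 3190 to 3291 CPM, whereas KO noCys (3397 to 3503) overlapped WT noCys (2986 to 3405). The share differed more between these last groups than the TMM level, and the part that lower Alb and other hepatocyte markers had in the share was not tested.

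Other genes of mitochondrial translation were counted in KO noCys against WT noCys from lists written for this description, to be read against the 14.8% of all genes called higher, the 13.4% called lower and the median of -0.02 over all genes. Of 5 subunits without an Mrp name 1 was called, Ptcd3 (0.42, SE 0.15). Of 17 translation and insertion factors tested 5 were higher and 1 lower (median 0.29), with Slirp, which with Lrpprc stabilizes mitochondrial messenger RNAs, at -0.69 (SE 0.18), and Cox18 and Mtrf1l at 0.61 (SE 0.15) and 0.60 (SE 0.17). Of 28 assembly and ribosomal RNA modification factors 9 were higher and 1 lower (median 0.30), led by Tfb1m, which methylates the small ribosomal RNA (0.89, SE 0.17), Trub2 (0.68, SE 0.21) and Ngrn (0.55, SE 0.15), with Nsun4 as the fall (-0.36, SE 0.13). Of 12 genes of mitochondrial transcription and DNA maintenance 3 were higher and none lower, namely Mterf2 (1.01, SE 0.33), Twnk (0.70, SE 0.15), whose gene overlaps Mrpl43, and Tefm (0.45, SE 0.15). Of 13 regulators of mitochondrial biogenesis 2 were higher, a share near that of all genes, Atf5, a transcription factor of the mitochondrial stress response (2.42, SE 0.20), and Gabpb1, a subunit of GABP (0.52, SE 0.16).

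Mitochondrial chaperones and proteases had 9 of 10 members higher (median 0.70), beside 14.8% and a median of -0.02 over all genes, led by the protease Lonp1 (1.27, SE 0.16) and the chaperones Hspa9 (1.14, SE 0.12) and Hspe1 (0.83, SE 0.13). Cytosolic ribosomal proteins had 42 of 79 higher and 1 lower, with a median of 0.36, beside the mitochondrial median of 0.11. Within KO, noCys against CTR, the cytosolic set had 39 higher and 1 lower (median 0.37) and the mitochondrial set 6 higher and 10 lower (median -0.03), beside 10.6% higher, 9.59% lower and a median of 0.00 over all genes. None of these lists of mitochondrial genes had a called member between KO CTR and WT CTR, KO noTrp and WT noTrp, KO noTrp and KO CTR, or WT noCys and WT CTR by edgeR, with 0 to 4 genes a list at an unadjusted p under 0.05. In WT noTrp against WT CTR, where 3.19% of all genes were called, the regulator Esrra (0.84, SE 0.17, edgeR adjusted p = 0.0122) and Hspa9 (0.61, SE 0.15, adjusted p = 0.0308) were higher, as were 11 of 79 cytosolic ribosomal proteins. The markers of other liver cells were lower or not called in KO noCys: the summed level was 16.1 to 18.1 against 34.2 to 57.8 CPM for cholangiocytes, 194 to 222 against 205 to 326 CPM for stellate cells and fibroblasts, 85.5 to 93.6 against 97.1 to 142 CPM for endothelium, 90.4 to 112 against 102 to 176 CPM for Kupffer cells and other leukocytes, and 112 to 137 against 155 to 308 CPM for erythroid cells. Of the 10 hepatocyte markers 4 were called, all lower, and no hepatocyte or other liver cell marker of these lists was at 0 throughout either group. The part of these cell types in the members' values was not tested.

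A feature of position that the selection did not use was more frequent among the members than among the tested protein-coding genes. Of the 78, 33 (42.3%) have a protein-coding gene that starts on the other strand within 1000 bases of their own start, against 1962 of 12336 tested protein-coding genes (15.9%). Mrpl46 and Mrps11 form such a pair with each other, 412 bases apart, and neither was called (0.15, SE 0.11, and -0.12, SE 0.18). In the 250 bases before the RefSeq start, available for 69 members, the ETS motif CCGGAAG occurred on either strand in 23.2% of member promoters, in 13.5% of the promoters of tested genes and in 7.05% of all 27025 promoters. The NRF1 motif GCATGCGC occurred in 11.6%, 4.42% and 2.32% of them, and the YY1 motif AAGATGGCG in 2.90%, 1.18% and 0.607%. The NFE2L2 motif TGACNNNGC was in 15.9%, 12% and 10.1%. The ATF4 motif TGATGNAA was in none of the 69, in 2.04% of tested and in 3.53% of all promoters. Among the 16 called rises with a promoter 2 held the NRF1 motif and 5 the ETS motif, among the 9 called falls 3 and 2, and among 43 members not called 3 and 8. A match is only these letters in this window and says nothing of binding.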

How the data were processed

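Livers were extracted with TRIzol and poly(A) RNA was sequenced as paired ends after NEBNext Ultra library preparation. Per the labels and the submitters' processing notes, the authors aligned reads with HISAT2 2.1.0 to GRCm38, counted them per gene with HTSeq 0.11.0 and deposited raw counts for 46078 Ensembl genes. The annotation release, strand setting and treatment of multi-mapping reads are not given in the sources used here. The table has 1 further column that could be tied to no labelled sample, and it was left out.

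Genes were filtered with filterByExpr (minimum count 10, minimum total 15), which left 14370 of 46078, and scaled by TMM (factors 0.883 to 1.14). One model with a mean for each of 6 groups was fitted to all 21 libraries with edgeR 4.0.16 in R 4.3.3, and tested by its quasi-likelihood F-test. P-values were adjusted by Benjamini and Hochberg over all 14370 genes, and a gene was called at an adjusted p under 0.05. SE is the log2 fold change divided by the square root of F, and every CPM is TMM-scaled. P-values set a group difference against the spread between these libraries. Gene positions, exons and coding sequences came from GENCODE M21 and promoters from RefSeq. Alternatives were DESeq2 1.42.0, RLE size factors, library totals alone, no filter, a replicate block, only the groups compared, and each library left out. Leaving out both libraries that stood apart was added after the data were seen.

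The members, gene lists and markers were chosen with earlier results of these data known. Named in the comparison of KO noCys with WT noCys were the 10 largest called rises and all called falls, and elsewhere up to 3 in each direction, or all where 5 or fewer were called. Always named were the iron-sulfur members, Mrpl12, Mrps36, the members highest and lowest per length and the one removed by the filter. From each list of other genes up to 3 called genes were named. Mrps22, Mrps5, Mrpl16, Mrpl46, Mrps11, Mrps7, Mrpl20, Mrpl38, Nsun4, Esrra and members called only under an alternative were named after their values were seen, as were neighbouring genes.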

Additional observations from a re-analysis of the deposited data

Results flagged for a closer look

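Within groups of 4 or 5 libraries, 33 combinations of group and measure were examined for a library far from the others, of which chance marks about 1 in 20, and 3 were marked. Mrps25 stood low in WT noCys replicate 1, at 16.7 CPM where the other libraries of its group had 19 to 19.4, and high in KO noTrp replicate 2, at 27.9 CPM where the others had 18.7 to 21. The members took 0.373% of counts in KO CTR replicate 1, above the other KO CTR libraries.

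The effect of the cysteine-free diet differed between the genotypes, by edgeR's test of the difference itself, for Mrps18c (-1.11), Mrpl18 (-0.76), Mrpl32 (-0.55), Mrpl12 (-0.53) and Mrps2 (0.57), given as KO minus WT on the log2 scale. Of 21 alternatives these calls held in 21, 4, 11, 18 and 18, in the same order. The effect of genotype differed between the noCys and noTrp diets for Mrps18c (-1.17), which held in 20 of 21. The cause of these differences was not tested.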

How the results depend on the processing

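No result changed sign past its threshold under any alternative. In KO noCys against WT noCys 29 members were called, 44 with library totals alone, and 16 to 28 with 1 library left out, the 16 without KO noCys replicate 3; it was also 16 without both libraries that stood apart. With 1 library left out, the counts ran from 12 to 18 in KO noCys against KO CTR, 1 to 2 in KO noTrp against KO CTR, 0 to 2 in WT noTrp against WT CTR, 0 to 12 in KO noCys against KO noTrp, 1 to 10 for the cysteine diet by genotype, 1 to 4 for the genotype by noCys or noTrp, 15 to 33 for any difference over the groups, and stayed at 0 for the other 3 comparisons.

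With 1 library left out, the share of all genes called ran from 16.5% to 27.1% in KO noCys against WT noCys. It ran from 9.65% to 20.8% against KO CTR and 3.99% to 14.8% against KO noTrp. For KO noTrp against KO CTR it was 0.735% to 3.12%. It was 3.01% to 9.75% for the cysteine diet by genotype and 2.91% to 8.21% for the genotype by noCys or noTrp. Where KO noCys took part, the lowest share was without its replicate 3. Without both libraries that stood apart the counts of members were 0 in WT noTrp against WT CTR and in KO noCys against KO noTrp, 2 for the cysteine diet by genotype and 12 for any difference. DESeq2 called 1 member in KO noTrp against WT noTrp (beside 0.814% of all genes) and 2 in KO noTrp against KO CTR (4.22%). It called 10 for the cysteine diet by genotype (9.82%) and 2 for the genotype by noCys or noTrp (8.81%). Library totals alone gave 2 in KO noTrp against KO CTR (1.72%), 0 in WT noTrp against WT CTR (3.49%) and 4 for the genotype by noCys or noTrp (8.74%). Without the filter WT noTrp against WT CTR gave 0 (1.91%). With only the groups compared it gave 0 (0.0226%) and the cysteine diet by genotype 9 (9.16%). Without KO noTrp replicate 5, Mrpl38 joined Mrpl49 in KO noTrp against KO CTR. The median over the members moved by more than its spread between libraries (0.068) with library totals alone in 6 comparisons, and without a WT noTrp library in 3. The causes were not tested, beyond the smaller number of libraries.

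The labels number the replicates and do not say whether the numbers pair the libraries. Over 41 pairs with the same number the median correlation of deviations was -0.0346, with a range of -0.355 to 0.353. Of these 9 were over 0.1, and the median was 0.0125 over 140 other pairs. The median does not show pairing, and pairing of some libraries cannot be told from it. With a replicate block 27 members were called in KO noCys against WT noCys (beside 24.4% of all genes) and 14 in KO noCys against KO CTR (16.5%). There were 2 in KO noTrp against KO CTR (1.52%), 0 in WT noTrp against WT CTR (1.33%) and 6 in KO noCys against KO noTrp (9.06%). The cysteine diet by genotype had 3 (5.69%) and any difference 17. Depth limits Mrps18b most, with 50 counts in its lowest library, and WT noTrp has 2 libraries only.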
